A study of Drosophila melanogaster with 2 samples.

Results

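The Hippo growth control pathway genes hpo, sav, wts, mats, yki, sd, ex, Mer, kibra and ft were examined for binding of Max, tagged with green fluorescent protein (GFP), in Drosophila melanogaster embryos. The 10 genes were taken by gene name from the Ensembl annotation, among 13945 protein-coding genes on the 6 main chromosome arms. Max is a transcription factor that pairs with Myc, a driver of cell growth, to bind DNA. Chromatin immunoprecipitation followed by sequencing (ChIP-seq) used an antibody against GFP on embryos of 0 to 24 h, both sexes pooled, from 1 transgenic line that stably makes Max with GFP at its C terminus. The antibody field of the labels names Max and their description names anti-GFP, which was followed here. If the antibody was against Max itself, the peaks would include untagged Max. The only group held 2 biological replicates, numbered 2 and 3, and no untagged or untreated group was analysed here. Because whole embryos of all these ages were used, a site bound in few cells and a site bound weakly in many cannot be told apart. Whether the tagged protein is made at the level of the normal one was not tested.

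The Hippo pathway limits organ size in flies. The kinase Hippo, with its scaffold Salvador, acts on the kinase Warts and its cofactor Mats, and Warts then phosphorylates the coactivator Yorkie and keeps it out of the nucleus. Yorkie that escapes this control enters the nucleus, binds the DNA-binding protein Scalloped and turns on genes for growth and survival. Expanded, Merlin and Kibra assemble at the apical cell cortex and feed into the kinases, and the cadherin Fat acts through a branch of its own.

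Peaks were read from 4 lists deposited by the authors on the dm6 assembly. A list for each replicate and a list for the pooled replicates held 30000 peaks each, and a shorter list held the 4712 pooled peaks kept by a limit on the irreproducible discovery rate (IDR). This rate estimates, from 2 ranked lists, how many of the called peaks would fail to recur. The peak score is the authors' own and has a scale of its own in each list, so it ranks peaks within a list only. Scores in the IDR list ran from 87.0 to 1561.5, with a median of 136.4. A promoter summit is a peak's highest point lying within 500 bp of an annotated transcript start. Positive offsets below run into the gene and negative offsets run upstream.

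In the IDR list, Max-GFP had a promoter summit at 6 of the 10 Hippo pathway genes, against 25.9% of all protein-coding genes. These were hpo, sav, mats, yki, Mer and kibra. The share was 60% for the pathway (95% Wilson interval 31.3 to 83.2%), and the interval for all genes was 25.2 to 26.6%. With summits in the gene body added, ex and wts joined and the count was 8 of 10 (49 to 94.3%), against 29.5% of all protein-coding genes. The remaining genes, sd and ft, had no IDR summit at a promoter or in the body. The counts with the body are not matched for length. The median length was 10.4 kb for the pathway, against 2.17 kb for all genes. Of the genes of 15 kb or longer, 3 of 5 members had a summit of either kind, against 49.2% of all genes of that length. Both full replicate lists held a promoter summit for 10 of 10 genes, against 47.2% of all genes, and the pooled list did so for 10 of 10, against 57.2%. These full lists reach far down the ranking. When each replicate was limited to its 4712 highest peaks, 5 of 10 genes had a promoter summit in both replicates, against 20.6% of all genes. The gene lost was sav. The intervals are wide with 10 genes and cover counting error only. They do not cover the choice of the genes, which was made with earlier results of these data known. Setting them side by side is therefore no test, and no test was made on a list chosen by name.

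**Figure D1:**
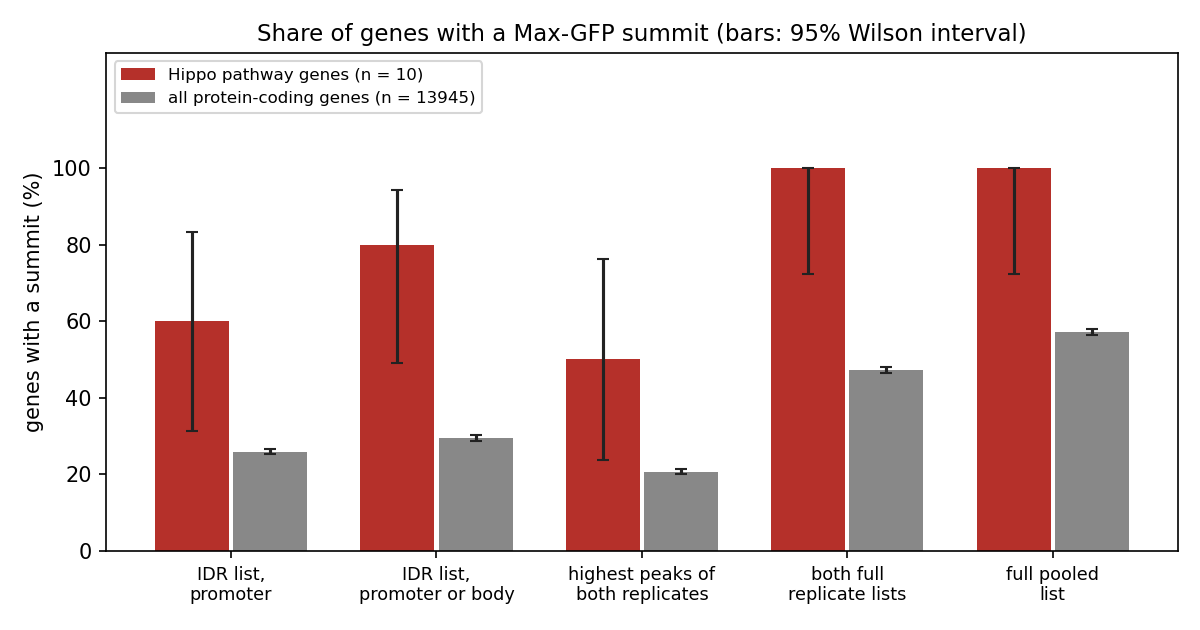
Share of genes with a Max-GFP summit, in percent, under 5 ways of calling, for the 10 Hippo pathway genes (left bar of each pair) and all 13945 protein-coding genes (right bar). Error bars are 95% Wilson intervals. The pathway's bar is the taller in each pair, at 60% against 25.9% for promoter summits in the IDR list.

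By role, the kinase cassette had promoter summits at 3 of 4 genes, against 25.9% of all genes, and summits of either kind at 4 of 4, against 29.5%. The transcription pair had them at 1 of 2 genes, yki and not sd. The upstream genes had promoter summits at 2 of 4, Mer and kibra, and summits of either kind at 3 of 4. The roles hold too few genes to be set apart from each other. The genes were also sorted by length, after their values were known. All 5 genes shorter than 4 kb (hpo, sav, mats, yki and Mer) had an IDR promoter summit. Only 1 of the 5 genes of 15 kb or longer, kibra, had one. Across all genes the order was the other way round, with 22.4% of 9741 genes shorter than 4 kb and 30.5% of 1359 genes of 15 kb or longer.

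**Figure D2:**
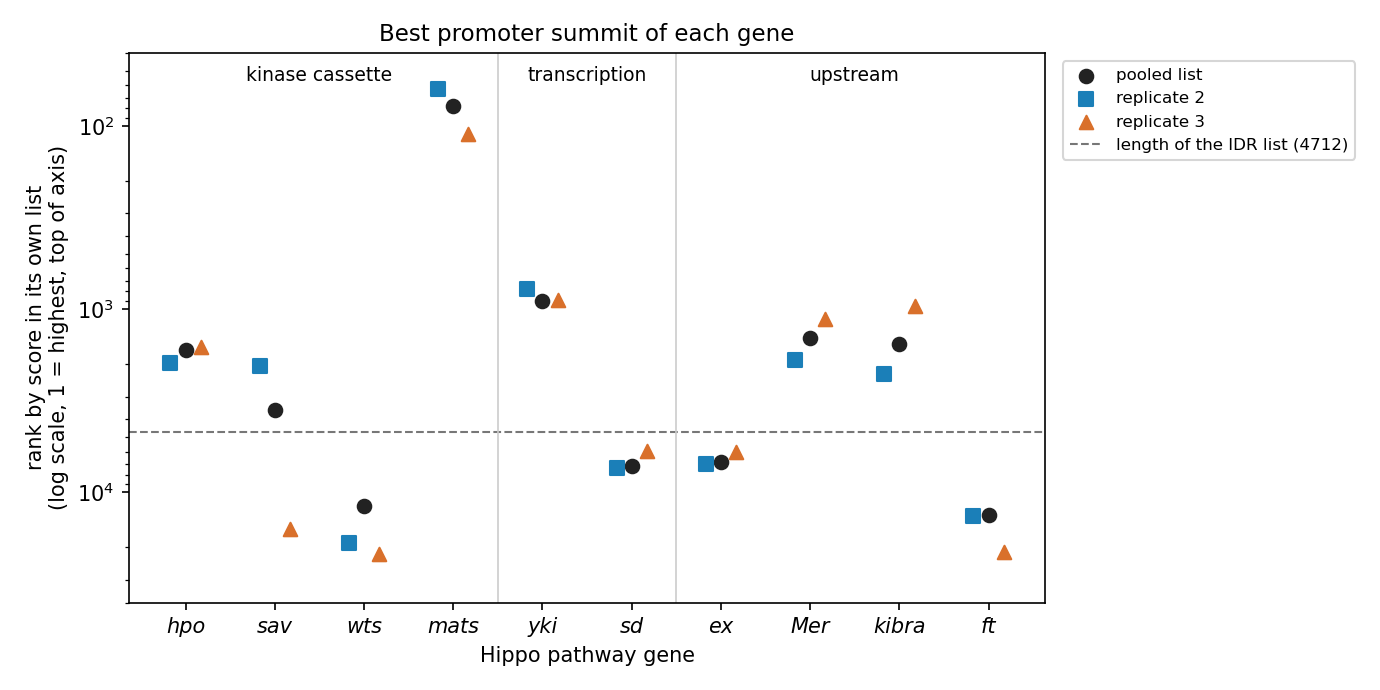
Rank of the best promoter summit of each Hippo pathway gene, on a log axis with rank 1 at the top, in the pooled list and in each replicate. The dashed line marks rank 4712, the length of the IDR list, and mats stands highest in all 3 lists, at ranks 78, 63 and 111.

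Hippo, the Ste20-family kinase that names the pathway, is encoded by hpo (FBgn0261456, chr2R:19493996-19496856, minus strand). Its IDR summit lay 74 bp upstream of the start, in a peak at chr2R:19496712-19497147. The score was 166.8 and the rank was 1678 in the pooled list. Replicate 2 gave a score of 95.5 and rank 1972, and replicate 3 gave 66.6 and rank 1611. The replicate summits were 2 bp apart, at offsets of -66 and -68 bp, so position and rank were close in both. No other gene started within 500 bp of the summit, and the nearest, CG15120, started 822 bp away.

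The kinase that phosphorylates Yorkie, Warts, is encoded by wts (FBgn0011739, 3R, 30789625 to 30806619, minus strand). It was the only gene of the cassette with no IDR summit at its promoter. Its best pooled promoter summit had a score of 43.9 and rank 11886, 301 bp inside the gene in the 5′ untranslated region. The replicates had their best promoter summits elsewhere, upstream of the start and shared with the neighbour dj-1beta. Replicate 2 had its best at -405 bp, at rank 19014, and ranked a summit 318 bp inside the gene 21802. Replicate 3 had its only promoter summit at -210 bp, at rank 21706, so it had none near the best pooled one. The other pooled promoter summits, at -187 and -401 bp, had scores of 26.5 and 24.7 and were shared with dj-1beta, a gene of the oxidative stress response whose start lies 498 bp from that of wts. All these values lie far below the IDR list.

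Mats, the Mob-family activator of Warts, had the highest peak of the pathway. The gene (FBgn0038965, 3R, 22421161 to 22423302, plus strand) had an IDR summit at 22421055, 106 bp upstream of its start, with a score of 591.9 and pooled rank 78. It stood 54th among the 2855 IDR summits at promoters, in the highest 1.89%. Replicate 2 scored its best summit 376.7 at rank 63, and replicate 3 scored it 215.7 at rank 111. The replicate summits were 41 bp apart. The peak cannot be given to mats alone, because Nop56, a core protein of the box C/D small nucleolar ribonucleoproteins, starts 93 bp from mats on the opposite strand and 13 bp from the summit. A stretch across the summit is shown because it holds the E-box CACGTG, the site that Max and Myc bind, and the core promoter motif Ohler 1 (GGTCACAC). It is at chr3R:22421033-22421062, plus strand, from the RefSeq Release 6 genome, and all of it lies in the annotated 5′ untranslated region of Nop56. Capitals mark both motifs, and Ohler 1 reads here as its reverse complement.
mats and Nop56 summit: ccCACGTGcttacttcaaGTGTGACCatag
The motifs start 16 bp apart. The E-box was centred 17.5 bp from the summit and Ohler 1 was centred 0.5 bp from it. Another core promoter motif, Ohler 6 (GGTATTTT), was centred 46.5 bp from it, outside the stretch shown. Among all IDR promoter summits, 4.45% had the E-box within 50 bp, 3.47% had Ohler 1, and 13 of 2855 (0.455%) had both. Among 19252 protein-coding starts, 0.151% had both within 50 bp. The pair was counted because this summit holds it, so its share is a description and no test. A match describes letters in a window and does not show which protein was bound there.

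Salvador, the scaffold that joins Hippo to Warts, had the lowest-ranked IDR promoter summit of the pathway. The gene (FBgn0053193, 3R, 23058609 to 23061304, minus strand) had a summit at 23061402, 98 bp upstream, with a score of 106.0 and pooled rank 3563. The replicates were far apart. Replicate 2 had a summit 100 bp upstream with a score of 93.9 and rank 2043. In replicate 3 the peak over the same place scored 12.5 at rank 26209, and the best promoter summit, 149 bp inside the gene, scored 16.5 at rank 15864. The call at sav therefore rests on replicate 2. The summit is shared with Ublcp1, a phosphatase that acts on the proteasome, which starts 91 bp from it and 189 bp from sav. The sequence is shown for its base composition, at chr3R:23061352-23061452, minus strand, from the same genome, with nothing in capitals.
sav and Ublcp1 summit: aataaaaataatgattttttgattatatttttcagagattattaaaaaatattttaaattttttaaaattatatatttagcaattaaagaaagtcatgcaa
G and C made up 11.9% of these 101 bases, against a median of 34.7% at IDR promoter summits. Only 3 of all 4712 IDR summits had less. None of the 11 motifs searched lay within 50 bp of the summit. At 100 bp the single match was CATTCC, the core bound by Scalloped, centred 61.5 bp away.

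Yorkie, the coactivator that the kinases restrain, had 2 IDR summits at its promoter. The gene yki (FBgn0034970, chr2R:24065975-24068485, minus strand) had the higher of them 229 bp upstream, with a score of 230.7 and pooled rank 899, and the lower 428 bp upstream, with a score of 154.1 and rank 1914. They lay 199 bp apart. Replicate 2 also had both, with scores of 152.1 and 88.7 at ranks 778 and 2242. Replicate 3 had 1 summit between them, 358 bp upstream, with a score of 91.6 and rank 891, and a weak one 338 bp inside the gene with a score of 17.4. Both replicates thus ranked the region alike, while the number and place of the summits differed. With a window of 250 bp, yki no longer had a promoter summit in replicate 3. Both pooled summits are shared with Gpat4, a glycerol-3-phosphate acyltransferase gene that starts 272 bp from yki, and they lay nearer to its start, at 43 and 137 bp.

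Scalloped, the DNA-binding partner of Yorkie, gave a different picture. The gene sd (FBgn0003345, X, 15804370 to 15827682, plus strand) has 7 annotated starts, and none had an IDR summit. In the pooled list 5 of the 7 had a summit within 500 bp, but these were 4 summits, because the starts at 15812094 and 15812327 counted the same summit, at offsets of -264 and -497 bp. The best lay 198 bp inside the start at 15813553, with a score of 63.9 and rank 7222. Replicate 2 placed its best summit 263 bp upstream of the start at 15812094, with a score of 41.7 and rank 7407. Replicate 3 placed its best 4 bp inside the start at 15805507, with a score of 28.8 and rank 5954. The replicates did not favour the same start. No summit lay within 500 bp of the starts at 15815299 and 15818151 in any list. Just outside that window, a pooled summit 666 bp inside the start at 15818151 had a score of 61 and rank 7663. Replicate 2 ranked its summit there 8906, also at 666 bp, and replicate 3 ranked its own 13077, at 668 bp.

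Merlin is a FERM-domain protein that works with Expanded upstream of the kinases. Its gene Mer (FBgn0086384, X, 19689697 to 19693500, minus strand) had an IDR summit at 19693433, 67 bp inside the gene in intron 1, with a score of 180.0 and pooled rank 1443. Replicate 2 scored its summit 97.4 at rank 1886, 125 bp inside the gene. Replicate 3 scored it 80.9 at rank 1128, 135 bp inside the gene. Both replicate summits thus lay a little deeper in the gene than the pooled one. The peak was not shared, and the nearest other start, of CG14229, was 1625 bp away. The 50 bases just upstream of the start are shown because they hold Ohler 1, in capitals, at chrX:19693501-19693550, minus strand.
Mer upstream of the start: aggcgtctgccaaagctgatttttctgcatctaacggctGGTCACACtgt
The motif was centred 74.5 bp from the summit, outside the 50 bp window. Within 100 bp, 6.58% of IDR promoter summits had Ohler 1.

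Kibra, a WW-domain protein that joins Merlin and Expanded, was the only long gene with an IDR promoter summit. The gene (FBgn0262127, 3R, 14697689 to 14724261, minus strand) had this summit at 14724306, 45 bp upstream, with a score of 173.8 and pooled rank 1545. Replicate 2 gave a score of 88.5 at rank 2256, and replicate 3 gave 87.8 at rank 964. No other gene shared the peak, and the nearest start, of CG7530, was 4772 bp away. The bases at chr3R:14724262-14724356, minus strand, are shown because they hold the DNA replication-related element (DRE), TATCGATA, in 2 copies, in capitals.
kibra promoter summit: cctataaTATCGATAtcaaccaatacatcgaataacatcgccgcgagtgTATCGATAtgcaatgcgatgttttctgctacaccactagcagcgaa
The copies start 42 bp apart and were centred 39.5 and 2.5 bp from the summit. A DRE lay within 50 bp of 5.57% of IDR promoter summits, and 2 or more lay there in 5 of 2855 (0.175%). Among protein-coding starts, 4.48% had a DRE and 0.151% had 2 or more within 50 bp of the start. The upstream copy at kibra lies farther than that from its own start. With 100 bp, 0.455% of IDR promoter summits and 0.436% of starts had 2 or more. These shares were taken because kibra holds 2 copies, and they are no test. At hpo a DRE was centred 58.5 bp from the summit, just outside that window. No other IDR promoter summit of the pathway had an E-box CACGTG, DRE, Ohler 1, Ohler 6 (GGTATTTT) or Ohler 7 (CATCNCTA) within 50 bp, so mats and kibra were the only 2 genes with any of them. Any of these 5 motifs lay within 50 bp of 16% of IDR promoter summits, so 2 of 6 genes is a small count to read against it. With 100 bp, Mer and hpo joined, and 29.1% of IDR promoter summits then had a motif of the 5 and 9.53% had a DRE.

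Expanded, a FERM-domain protein and a known target of Yorkie, had no IDR promoter summit by the 500 bp rule. The best pooled promoter summit of ex (FBgn0004583, 2L, 431227 to 448701, plus strand) was 41 bp inside the gene, in the 5′ untranslated region, with a score of 66.9 and rank 6808. Replicate 2 had its best promoter summit 201 bp upstream, with a score of 43.6 and rank 6992. Its summit 41 bp inside the gene scored 38.4 at rank 8281. Replicate 3 had its best 57 bp inside the gene, with a score of 28.6 and rank 6020. An IDR summit did lie upstream of ex, at 430228, which is 999 bp from the start and so outside the rule, with a score of 127.9 and rank 2627. Replicate 2 ranked that peak 3190 and replicate 3 ranked it 2240. Fat, the large cadherin at the head of its own branch, had the lowest best promoter summit of the 10 genes in the pooled list. For ft (FBgn0001075, 2L, 4198404 to 4221796, minus strand) it lay 155 bp inside the gene with a score of 40.6 and rank 13224. Replicate 2 ranked its best promoter summit 13441, at 157 bp inside the gene, and replicate 3 ranked its own 21058, at 18 bp.

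Inside the genes, 8 IDR summits lay more than 500 bp from any start, all in introns of kibra, ex and wts. Of these 8, 4 were matched to peaks among the 4712 highest of both replicates. Those 4 include the kibra summits at 14714679 and 14714883, which were matched to the same peak in each replicate. Counted over the 109.2 kb of gene body outside promoters, the pathway had 0.732 IDR summits per 10 kb, against 0.168 for all protein-coding genes. Without kibra the pathway had 4 in 83.3 kb, or 0.48 per 10 kb. In the full pooled list the density was 3.85 per 10 kb for the pathway, against 1.86 for all genes. The bodies of sd and ft held no IDR summit over 16.6 and 22.7 kb outside promoters. Genes with any IDR summit of this kind numbered 830 (5.95% of all), and 66 (0.473%) had 4 or more, as kibra did. These shares are over genes of any length, with a median of 2.17 kb, while kibra is 26.57 kb long. They were not matched for length.

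**Figure D3:**
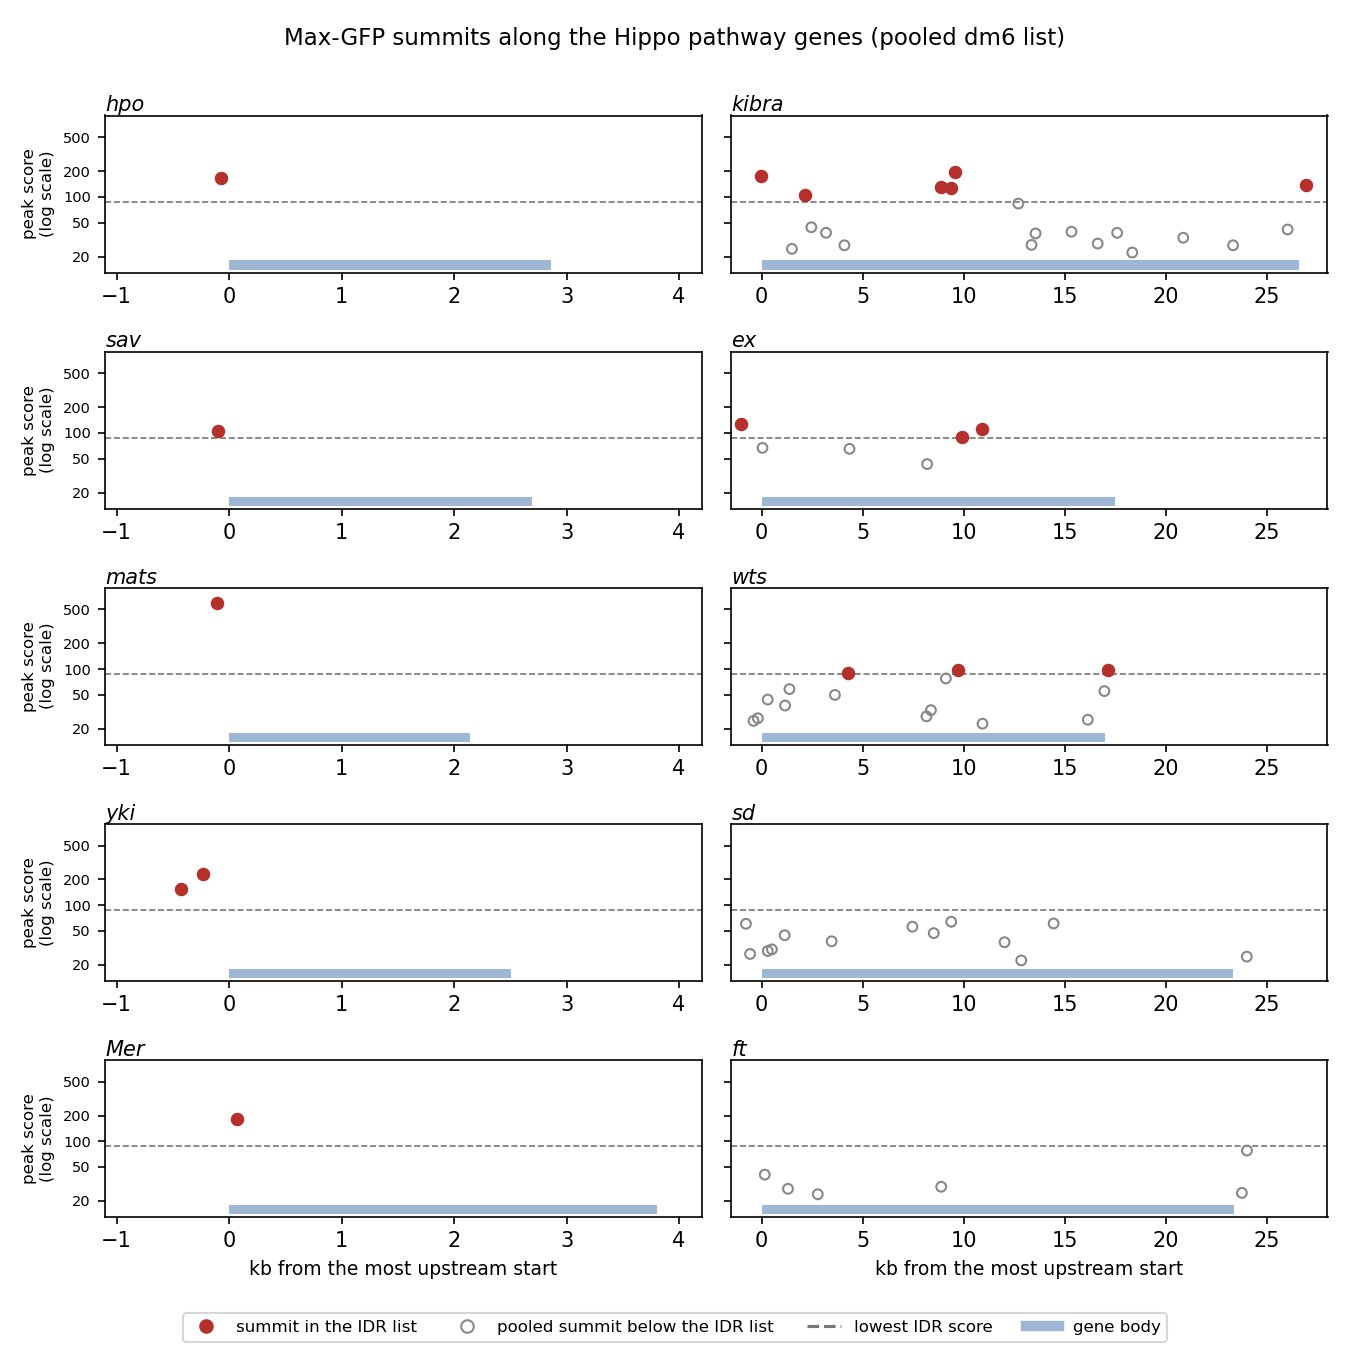
Summits of the pooled list along each Hippo pathway gene, in kb from the most upstream start, with the peak score on a log axis. Filled points are in the IDR list, open points are not, and the dashed line is the lowest IDR score, 87.0. The 5 short genes on the left have filled points near the start alone, while kibra, ex and wts have filled points inside the gene.

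All 4 of these summits in kibra were in intron 1. The highest, at 14714679, had a score of 198.3 and pooled rank 1211, above the promoter peak of the same gene. Replicate 2 scored it 106.6 at rank 1613, and replicate 3 scored it 96.5 at rank 797. With the summits at 14714883 and 14715408 it formed a cluster 729 bp long, with scores of 127.4 and 129.1 for the others. Replicate 3 had 1 peak, with its summit at 14714752, over both 14714679 and 14714883, so it does not show them as separate. With those taken as 1, kibra had 3 body summits, and 123 genes of any length (0.882%) had 3 or more. The last summit, at 14722127, had a score of 105.2, with rank 3933 in replicate 2 and 4722 in replicate 3. The highest peak was only 151 bp wide, against 436 bp for 75.4% of IDR peaks, and 227 of 4712 were that narrow or narrower. Its sequence, at chr3R:14714629-14714729, minus strand, is shown for its run of alternating A and T, with TATAAA in capitals.
kibra intron summit: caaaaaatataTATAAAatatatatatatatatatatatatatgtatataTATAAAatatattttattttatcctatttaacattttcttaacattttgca
G and C made up 8.91% of it, and none of the 4712 IDR summits had less. How reads that fit several places in the genome were treated is not given in the sources used here, and their part in this peak was not tested.

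In ex both body summits lay in intron 3, 999 bp apart. The higher, at 442119, had a score of 111.8 and pooled rank 3260, with rank 4386 in replicate 2 and 2371 in replicate 3. The lower, at 441120, had a score of 89.6 and rank 4535, close to the end of the IDR list, with ranks 6232 and 4467 in replicates 2 and 3. The higher site is shown as the best IDR peak inside ex, at chr2L:442069-442169, plus strand, with nothing in capitals.
ex intron summit: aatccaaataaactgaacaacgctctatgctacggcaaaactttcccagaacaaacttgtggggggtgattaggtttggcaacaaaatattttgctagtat

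In wts a summit in intron 2, at 30796906, had a score of 96.5 and pooled rank 4083, and a summit in intron 1, at 30802347, had 89.3 and rank 4556. Replicate 2 ranked them 5360 and 5418, and replicate 3 ranked them 4027 and 5577. Neither was among the 4712 highest peaks of both replicates. A further IDR summit, at 30789458, lay 167 bp past the 3′ end of wts and so outside the rule, with a score of 96.6 and rank 4076. Replicate 2 ranked it 3846 and replicate 3 ranked it 5449. It is shown, at chr3R:30789408-30789508, minus strand, because it holds the E-box CACGTG, in capitals, centred 34.5 bp from the summit.
wts downstream summit: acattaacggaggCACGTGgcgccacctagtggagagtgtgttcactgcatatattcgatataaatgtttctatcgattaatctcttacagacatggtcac
An IDR summit also lay 374 bp past the end of kibra, with a score of 137.0 and rank 2334, and was 23 bp from the start of Meltrin, an ADAM-family metalloprotease gene. Just inside the rule were the lower yki summit, at 428 bp, and the pooled wts summit, at 401 bp.

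A promoter summit was shared with another gene at 3 of the 6 members that had one in the IDR list, namely mats, sav and yki. Sharing was common, since 2372 of all 3613 genes with an IDR promoter summit (65.7%) had another gene start within 500 bp of it. At hpo, Mer and kibra the summit was near the start of that gene alone. These 3 had close scores of 166.8, 180.0 and 173.8, and ranked 1129, 981 and 1044 among the 2855 promoter summits.

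Beyond the 10 members, 61 other protein-coding genes in or around the pathway were taken from lists by role. They include partners and reported targets of Yorkie, so they are not all components of the pathway. An IDR promoter summit was found at 27 of them (44.3%, against 25.9% of all protein-coding genes), and a further 10 had one in the gene body alone. Across all genes, adding body summits raised the share from 25.9% to 29.5%, and the lengths of these 61 genes were not compared. The excess of promoter summits was not seen among the highest peaks. With the 2356 highest IDR peaks the count was 8 of 61 (13.1%), against 15.5% of all genes, and with the 2356 highest peaks of both replicates it was 7 of 61 (11.5%), against 12.1%. Yorkie partners and regulators had it at 10 of 15 genes. The highest were brm, the ATPase of the Brahma chromatin remodelling complex, with a score of 562.1, the 14-3-3 gene 14-3-3zeta, with 443.7, and mask, a Yorkie cofactor, with 159.9. All 3 peaks are shared, with Arl1, RpLP0-like and Spase22-23. Reported Yorkie targets had a promoter summit at 6 of 15 genes. The highest were Krn, an EGF receptor ligand, with a score of 207.1, crb, an apical polarity protein, with 125.6, and dlp, a glypican, with 116.0. These peaks are shared too, that of Krn with CG7484 and Ndfip, that of crb with CG5715 and that of dlp with RecQ5. The targets CycE, Diap1, Myc, dally and vn had an IDR summit in the body alone. For the growth-promoting microRNA bantam, annotated as mir-ban, the nearest IDR summit was 477 bp away at rank 3657.

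Among genes that act upstream of Yorkie, apical and polarity inputs had an IDR promoter summit at 6 of 15 genes. The highest were the kinase gene aPKC with a score of 209.5, shared with ckn, crb with 125.6, shared with CG5715, and scrib with 104.2. The branch of Fat had it at 3 of 8, namely app, with 207.2 and shared with CG32100, dco, with 123.7, and dachs, with 87.9, at the very end of the list. Antagonists of the Hippo kinase, which include the STRIPAK phosphatase complex, had it at 3 of 9, namely mts, with 190.5 and shared with Rack1, Rassf, with 114.8 and shared with CenB1A, and Sik3, with 93.9. Of the parallel Ste20 kinases, hppy had a promoter summit with a score of 128.1, and msn had one in the body alone. Across all protein-coding genes the share was 25.9%, and with so few genes in each of these upstream lists their counts cannot be set apart from it. The lists were chosen with earlier results known, and the differences between them were not tested.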

How the data were processed

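Peak lists deposited by the authors on dm6 were used, made per the listing beside each sample from IP alignments against a control alignment, which was not analysed here. For the aligner, the peak caller and the treatment of reads that fit several places, the name or setting is not given in the sources used here. Each list deposited by the authors gives a score per peak, the −log10 of a q-value per peak (2.74 to 3.58 in the IDR list) and the summit. There is no p-value for single peaks. Read counts are lacking too, which leaves the depth unknown, and the full lists stop at 30000 peaks. The IDR list equals the 4712 highest-scoring pooled peaks, so a place in it does not mean that each replicate passed at that site. Per the labels, chromatin was sonicated to 200 to 800 bp. The dm3 lists were not used here.

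Peaks were ranked by score within a list and placed by summit against Ensembl release 115 and the RefSeq Release 6 genome, whose arm lengths fit the lists. Coordinates are 1-based. A replicate peak was matched to an IDR summit as the highest peak covering it. Motifs were searched on both strands, within 50 bp of each summit: the E-box CACGTG, its variant CACGCG, the variant CATGTG, the variant CAGCTG, the DRE TATCGATA, Ohler 1 GGTCACAC, Ohler 6 GGTATTTT, Ohler 7 CATCNCTA, the TATA box TATAAA, the GAGA motif GAGAGAG and the Scalloped core CATTCC. The wider list name d was matched as dachs and bantam as mir-ban. Text names all 10 members, genes sharing their IDR promoter summits, and up to 3 highest-scoring genes of each wider list. Genes with body summits alone, hppy, msn, Meltrin, dj-1beta and the nearest unshared neighbours were named after their values were seen. The members and lists were chosen with earlier results of these data known. With 1 group, no test between conditions was possible, and none was made on the lists. Peak placement was checked on simulated data. Python 3.11.15, pandas 2.3.3, numpy 2.4.6, scipy 1.17.1 and matplotlib 3.10.9 were used.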

Additional observations from a re-analysis of the deposited data

How the results depend on the processing

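No paired analysis was possible because the series has 1 group. The 6 members with an IDR promoter summit became 10 in the full pooled list. With the 2356 highest IDR peaks alone there were 5, and the members with a promoter or body summit numbered 5 in place of 8. All genes with a promoter summit numbered 2160 with that part and 7970 with the pooled list, in place of 3613. The genes of the wider lists numbered 8 and 59, in place of 27. With the 2356 peaks, the wider genes' share was 13.1%, below the 15.5% of all genes. With 100 bp on each side, 4 members in place of 2 had a core motif. The density of body summits was 3.85 per 10 kb in the pooled list, in place of 0.732. With 1 replicate alone, cut to its 4712 highest peaks, the counts ran from 5 to 6 members. The gene sav was lost in replicate 3 under that cut. All genes with a promoter summit then numbered 3484 to 3625 (25 to 26%), and the wider genes 23 to 26. Members with the body added numbered 7 to 8. A window of 1000 bp added ex, for 7 members, against 28.8% of all genes. For counts with the body added, the share of all genes under these other settings is not given here. A replicate's rank differed from the pooled rank by more than 1 SD of the replicate ranks in 8 of 20 cases. That SD comes from the same 2 ranks, so the count does not measure how stable a rank is. At wts, sd and ex the best summits of the lists were also not all at the same place. With 2 replicates and no counts, the error of a single peak's score cannot be given.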
